A study of Mus musculus with 8 samples.

Results

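The T cell and cytotoxic lymphocyte genes examined here are a list of 37 genes chosen by symbol, drawn up with earlier results of these data known. They encode the T cell antigen receptor and its co-receptors, accessory surface proteins, proximal signalling proteins, costimulatory and checkpoint receptors, cytokine receptors, transcription factors, and the granule proteins and receptors of cytotoxic and natural killer (NK) cells. The array annotation named at least 1 probe for 34 of them, and 32 had enough values to be tested, out of 24030 genes or unnamed features tested in all. Lck, Il2rg and Tcf7 had no probe under their symbol. Cd28 and Gzmk had probes but too few values, with Cd28 measured on 1 curcumin array and Gzmk on 2 control arrays.

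The colon of 8 male mdr1a-/- mice was profiled, 4 fed the AIN-76A control diet and 4 fed AIN-76A with 0.2% curcumin, a polyphenol of turmeric. All 8 mice lack mdr1a (Abcb1a), an efflux transporter of the gut epithelium, and such mice develop colitis. The labels give an age of 7 weeks, whereas the design text follows mice from 7 to 24 weeks, and the labels name the Swiss strain for the control group. Mice with high colon injury scores on histology represent the control diet and mice with low scores represent curcumin, so that diet and injury cannot be told apart. Each mouse had its own 2-colour array, with its RNA in Cy3 and a reference RNA in Cy5. Every value below is a log2 ratio to that reference or a difference between such ratios, so levels of different genes cannot be ranked, and the ratio does not tell whether a transcript was present or absent. In whole colon, fewer cells of a type and less RNA per cell cannot be told apart.

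The T cell receptor binds antigen through its variable chains and signals through the CD3 subunits and CD247. The kinases LCK and ZAP70 then phosphorylate the adaptors LAT and SLP-76, the product of Lcp2. Costimulatory receptors such as CD28 and ICOS add to this signal, and checkpoint receptors such as CTLA-4 and PD-1 restrain it. Cytotoxic lymphocytes kill with perforin and granzymes. In the colon, T cells lie in the epithelium and the lamina propria, and their activation is a feature of colitis in mice and of inflammatory bowel disease.

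Which channel stands on top of the ratio is not stated. Signs below take each value as mouse sample over reference, which is the likely direction. On that reading the male colon samples had less of liver, kidney and female transcripts than the reference: array medians ran from -3.04 to -2.56 for 9 liver genes and from -3.23 to -2.48 for 9 kidney genes, and Xist lay between -1.57 and -1.05. Read the other way, every sign would turn. Arrays of different groups correlated at 0.740 to 0.831, so all 8 ran the same way. The labels describe the reference as wild-type Swiss colon on the diet of each group, and the design text as 1 reference RNA. The reading of direction above takes a reference that holds liver, kidney and female RNA. Liver and kidney ratios this far from 0 are not those of colon against colon. A part of the reference in the differences between the diets cannot be told apart. Abcb1a itself lay between -0.67 and 0.05, and since both groups carry its disruption it does not check the diet labels.

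The promoters of 5 of these genes are shown first. Cd3g, Cd3d and Cd3e are neighbours on chromosome 9 with no other coding gene between them and gave different values on the arrays, and Lat and Lcp2 are genes that passed the test on other chromosomes. The 250 bases before each start, from RefSeq on GRCm38.p6 and written 5′ to 3′ in the direction of the gene, carry in capitals each match to AGGAAG, the core recognised by ETS factors, or to the E-box CACCTG, on either strand. None of the motifs searched contains another.
Cd3g, chr9:44980432-44980681, minus strand: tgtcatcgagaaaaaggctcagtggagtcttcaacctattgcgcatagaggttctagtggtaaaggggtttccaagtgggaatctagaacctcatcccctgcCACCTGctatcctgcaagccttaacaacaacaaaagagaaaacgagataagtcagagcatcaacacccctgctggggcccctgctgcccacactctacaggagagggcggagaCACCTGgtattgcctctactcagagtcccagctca
Cd3d, chr9:44981536-44981785, plus strand: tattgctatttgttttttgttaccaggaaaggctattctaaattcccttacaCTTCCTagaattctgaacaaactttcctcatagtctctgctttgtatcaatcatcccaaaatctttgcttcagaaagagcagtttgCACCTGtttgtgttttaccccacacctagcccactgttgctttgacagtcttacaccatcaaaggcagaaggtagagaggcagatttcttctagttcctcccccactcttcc
Cd3e, chr9:45009612-45009861, minus strand: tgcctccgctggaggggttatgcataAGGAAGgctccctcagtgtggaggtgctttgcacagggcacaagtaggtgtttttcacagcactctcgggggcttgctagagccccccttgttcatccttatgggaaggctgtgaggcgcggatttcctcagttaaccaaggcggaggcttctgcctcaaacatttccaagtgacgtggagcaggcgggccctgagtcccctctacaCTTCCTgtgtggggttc
Lat, chr7:126369569-126369818, minus strand: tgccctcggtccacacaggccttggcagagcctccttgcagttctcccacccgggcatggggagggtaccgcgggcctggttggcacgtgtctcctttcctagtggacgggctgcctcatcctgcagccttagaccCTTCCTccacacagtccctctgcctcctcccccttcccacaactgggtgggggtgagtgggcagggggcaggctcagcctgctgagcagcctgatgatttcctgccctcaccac
Lcp2, chr11:34046678-34046927, plus strand: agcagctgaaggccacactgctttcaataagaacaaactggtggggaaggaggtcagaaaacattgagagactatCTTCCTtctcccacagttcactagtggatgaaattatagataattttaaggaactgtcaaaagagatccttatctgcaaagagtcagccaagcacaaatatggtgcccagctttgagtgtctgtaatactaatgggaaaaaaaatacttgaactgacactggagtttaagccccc
Cd3g and Cd3d point away from each other, with 1355 bases between their starts. The window of Cd3d held 1 match of each motif, that of Cd3g held 2 E-boxes and no AGGAAG, that of Cd3e held 2 AGGAAG and no E-box, and those of Lat and Lcp2 held 1 AGGAAG each. RefSeq promoters were found for 28 of the 37 genes. AGGAAG occurred in 18 of these 28 (64.3%), against 32.3% of 27025 genes with a promoter of the same length. CACCTG occurred in 10 (35.7% against 19.4%), the RUNX core TGTGGT in 9 (32.1% against 15.9%) and the GATA motif AGATAA in 4 (14.3% against 11.4%). A match is a string of letters and does not show that a factor bound there.

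Of the 32 genes tested, 5 fell with curcumin and none rose. They were the CD3 subunit gene Cd3d, the adhesion receptor gene Cd6, the adaptor genes Lat and Lcp2, and the costimulatory receptor gene Icos. Across all measurements 4.73% passed, 2.63% downward and 2.1% upward, with limma's Benjamini-Hochberg adjusted p under 0.05. With quantile normalization of the arrays the split over all measurements turned, from 504 higher and 633 lower to 619 higher and 489 lower, and 6 of the T cell genes fell, Pdcd1 being added. The median log2 difference, curcumin minus control, was -0.27 for the 32 genes and -0.02 for all measurements. Means were lower with curcumin for 30 of the 32, against 56.2% of all measurements. An unadjusted p under 0.05 in the downward direction was reached by 19 of the 32, against 11% of all measurements. The curcumin values lay wholly below the control values for 11 of the 32 and wholly above them for none, against 7.21% and 5.38% of all measurements. The difference was at least 1.5-fold in 9 genes and at least 2-fold in Lcp2.

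**Figure D1:**
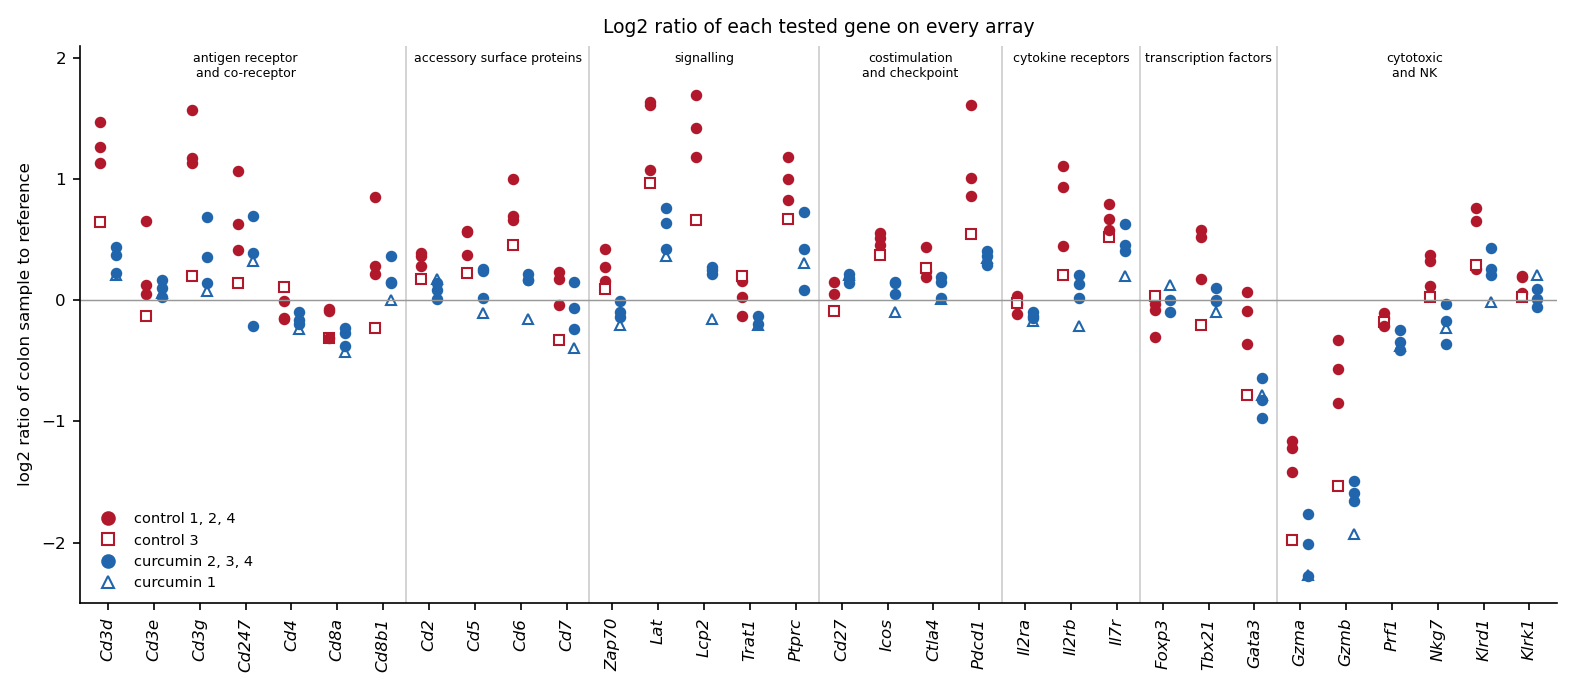
Log2 ratio to the reference on the y axis for each of the 32 tested genes, grouped by role, with 1 point for each array. Red marks the control arrays, with control 3 as an open square, and blue the curcumin arrays, with curcumin 1 as an open triangle. Cd3d, Cd6, Lat, Lcp2 and Icos show no overlap between the colours, and the open square is the lowest red point for 24 of the 31 genes measured on all 4 control arrays.

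The count of 5 changed with single arrays, as did the share of all measurements that fell, 2.63% with all 8. It went to 13 without control array 3 (3.46% of all measurements), and to 0 without curcumin array 1 (1.10%) or without curcumin array 4 (1.01%). The differences of the lost calls changed less, Lcp2 being -0.99 and -1.12 in those fits and Cd3d -0.78 and -0.84. The count was 1 without control array 4 (1.22% of all measurements), and 2 without control array 1 (1.56%) or without curcumin array 3 (1.53%). The 4 control arrays and curcumin arrays 1 and 2 carry slide numbers of 1 range, and curcumin arrays 3 and 4 of another. With that range as a term in the fit, or within the shared range alone, none of the 5 passed. Both fits give the same differences, those of the 4 control arrays against curcumin arrays 1 and 2 only. For the 5 genes, chosen by passing over all arrays, they were 0.978 to 1.15 times those over all arrays. Other genes moved more, Cd247 from -0.26 to -0.05 and Il7r from -0.22 to -0.34. Of all measurements 0.67% fell with range as a term and 0.29% within the shared range. At an unadjusted p under 0.05 in either direction limma gave 3217 and 3008 measurements, against 4423 with all 8 arrays and no range term.

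Among the antigen receptor and co-receptor genes, 1 of 7 fell, against 2.63% of all measurements. Cd3d, which encodes the delta subunit of CD3, had log2 ratios of 1.26, 1.47, 0.64 and 1.13 on control arrays 1 to 4. On curcumin arrays 1 to 4 it had 0.21, 0.44, 0.22 and 0.37. Every control value exceeded every curcumin value, and control array 3 lay closest to the curcumin group. The mean went from 1.13 ± 0.35 (SD, n = 4) to 0.31 ± 0.11, a log2 difference of -0.82 (SE 0.16, adjusted p = 0.024), or 1.76-fold.

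Cd3g, the gamma subunit gene next to Cd3d, had 1.17, 1.57, 0.20 and 1.13 on the control arrays and 0.08, 0.69, 0.14 and 0.36 on the curcumin arrays. Control arrays 1, 2 and 4 lay above all curcumin arrays, and control array 3 lay among them. The difference of -0.70 (SE 0.27, adjusted p = 0.193) did not pass, and it was -0.98 (adjusted p = 0.016) without control array 3. Cd3g passed in only that 1 of the 8 fits that leave out 1 array. Across the 8 the difference ran from -0.98 to -0.52, with adjusted p up to 0.356. Cd3e, the epsilon subunit gene, had a difference of -0.09 (SE 0.15, adjusted p = 0.828). Its probes behaved differently: 1 lay between -0.39 and -0.15 on all 8 arrays, and the other between 0.04 and 1.46, with the highest value on control array 2.

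The signalling chain gene Cd247 had a difference of -0.26 (SE 0.23, adjusted p = 0.617). Its value on curcumin array 4 came from 1 probe, its tested probes gave -0.19 and -0.20 on their own, and the difference was -0.05 with slide range as a term and -0.09 to -0.40 with 1 array left out. No co-receptor gene passed. Cd4, which marks helper T cells, gave -0.13 (SE 0.08, adjusted p = 0.477). Cd8a and Cd8b1, neighbours on chromosome 6 that encode the 2 chains of the CD8 co-receptor, gave -0.13 (SE 0.09, adjusted p = 0.491) for the first and -0.12 (SE 0.20, adjusted p = 0.82) for the other. The difference for Cd8b1 was 0.08 without control array 2, which held its highest value, 0.85.

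Of the 4 accessory surface genes, 1 fell, against 2.63% of all measurements. Cd6 encodes a scavenger receptor-type protein that binds the adhesion molecule ALCAM. It had 0.69, 1.002, 0.45 and 0.66 on the control arrays and -0.16, 0.16, 0.22 and 0.17 on the curcumin arrays. The groups did not overlap, and curcumin array 1 stood below the other curcumin arrays. The mean went from 0.70 ± 0.23 (SD, n = 4) to 0.10 ± 0.17, a difference of -0.61 (SE 0.13, adjusted p = 0.0322), or 1.52-fold. Its chromosome 19 neighbour Cd5, an inhibitory relative, had -0.33 (SE 0.11, adjusted p = 0.153). Cd2, an adhesion receptor gene, had -0.20 (SE 0.08, adjusted p = 0.201), and Cd7 had -0.15 (SE 0.15, adjusted p = 0.682).

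In the signalling group 2 of 5 tested genes fell, and none of the 5 had a higher mean with curcumin. Of all measurements 2.63% fell and 56.2% had a lower mean. Lcp2 encodes the adaptor SLP-76, which myeloid cells, mast cells and platelets also use. Its log2 ratios were 1.18, 1.42, 0.66 and 1.70 on the control arrays and -0.15, 0.25, 0.27 and 0.22 on the curcumin arrays. The lowest control value, on array 3, was still above the highest curcumin value. The mean went from 1.24 ± 0.44 (SD, n = 4) to 0.14 ± 0.20, a difference of -1.09 (SE 0.20, adjusted p = 0.0194), or 2.13-fold, the largest of the 32. It passed in 6 of the 8 fits that leave out 1 array, more than any other of the 32 genes.

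Lat encodes the membrane adaptor that gathers the signalling complex below the receptor and is also made by mast cells, NK cells and platelets. It had 1.07, 1.61, 0.96 and 1.63 on the control arrays and 0.36, 0.76, 0.64 and 0.42 on the curcumin arrays. The groups did not overlap. The mean went from 1.32 ± 0.35 (SD, n = 4) to 0.55 ± 0.19, a difference of -0.77 (SE 0.17, adjusted p = 0.037), or 1.71-fold.

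Zap70, the kinase that docks on phosphorylated CD3, had 0.42, 0.16, 0.09 and 0.28 on the control arrays and -0.21, -0.10, -0.14 and -0.01 on the curcumin arrays. The groups did not overlap, but the difference of -0.35 (SE 0.09, adjusted p = 0.065) did not pass. Trat1, which encodes a receptor-associated adaptor, had -0.24 (SE 0.10, adjusted p = 0.238) over 3 curcumin arrays, since it had no value on curcumin array 2. Ptprc encodes CD45, the phosphatase on all white blood cells, and is therefore no T cell marker. It had a difference of -0.54 (SE 0.15, adjusted p = 0.0886) as the mean of 4 probes, of which 1 had no value on curcumin array 2.

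The probes of Ptprc differed among themselves. The probe with the highest ratios had 2.42, 2.38, 1.67 and 2.69 on the control arrays and 0.72, 1.16, 0.81 and 0.24 on the curcumin arrays. Those groups did not overlap. Fitted on its own, that probe fell by 1.55 on the log2 scale (SE 0.24, adjusted p = 0.00924), whereas the other 3 gave -0.53, -0.28 and 0.10 and did not pass.

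The same held in other genes with several probes. Il7r, the interleukin 7 receptor gene of naive and memory T cells and innate lymphoid cells, had a probe that went from a mean of 1.63 to 0.68 (-0.96, SE 0.16, adjusted p = 0.0134). Its other probes gave -0.04 and 0.11, and the gene mean did not pass (-0.22, SE 0.11, adjusted p = 0.309). On curcumin array 4 that mean held the first probe alone, and with only probes that had values on all 8 arrays Il7r was -0.96 (adjusted p = 0.0121) and passed. Of the 2 probes of Cd6, 1 fell from a mean of 1.34 to 0.18 (-1.16, SE 0.17, adjusted p = 0.00801) and the other gave -0.05. With each probe on its own, 7 of 45 probes fell, 1 each for Cd3d, Cd6, Icos, Il7r, Lat, Lcp2 and Ptprc, against 2.38% of all 33957 probes, and none rose, against 1.98%. Which transcripts each probe detects was not examined.

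**Figure D2:**
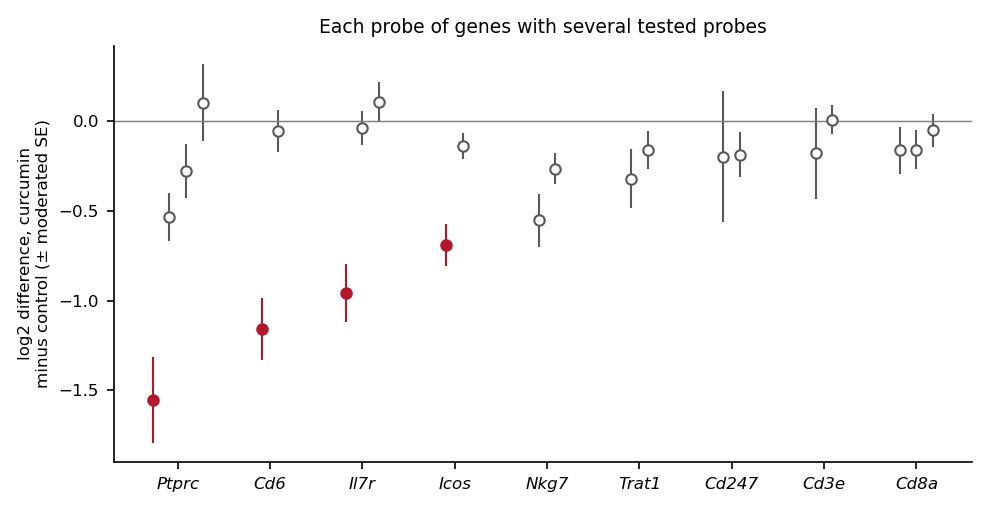
Log2 difference between the diets (curcumin minus control, bars are the moderated SE) for each probe of the 9 genes with more than 1 tested probe. Filled red points passed in the fit of all probes. In Ptprc, Cd6, Il7r and Icos 1 probe lay well below the others of the same gene, while the probes of Cd247 and Cd8a lay close together.

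Among the costimulatory and checkpoint genes 1 of 4 fell, against 2.63% of all measurements. Icos, the inducible costimulator of activated and follicular helper T cells, had 0.46, 0.51, 0.37 and 0.55 on the control arrays and -0.10, 0.14, 0.15 and 0.05 on the curcumin arrays. The groups did not overlap. The mean went from 0.47 ± 0.08 (SD, n = 4) to 0.06 ± 0.11, a difference of -0.41 (SE 0.08, adjusted p = 0.0242), or 1.33-fold. Its probes gave -0.69 and -0.14.

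Pdcd1 encodes the checkpoint receptor PD-1 of activated T cells. It had 0.86, 1.61, 0.55 and 1.005 on the control arrays and 0.34, 0.40, 0.37 and 0.29 on the curcumin arrays. The groups did not overlap, and the control SD of 0.44 was far above the curcumin SD of 0.05. The difference was -0.65 (SE 0.19, adjusted p = 0.0936). Ctla4, which lies between Cd28 and Icos on chromosome 1, had -0.19 (SE 0.08, adjusted p = 0.266). Cd27, a costimulatory receptor of the tumour necrosis factor receptor family, had a higher mean with curcumin (0.15, SE 0.08, adjusted p = 0.406, 3 control arrays).

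No cytokine receptor gene passed. Il2rb, the shared beta chain of the interleukin 2 and 15 receptors, had the smallest p. Its log2 ratios were 0.45, 0.93, 0.21 and 1.11 on the control arrays and -0.21, 0.14, 0.21 and 0.02 on the curcumin arrays. Control array 3 lay just above the highest curcumin value. The difference was -0.64 (SE 0.19, adjusted p = 0.105). Il2ra, the alpha chain found on regulatory and activated T cells, had -0.10 (SE 0.07, adjusted p = 0.466) from the 1 of its 4 probes with enough values.

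No transcription factor gene passed either. Gata3, of type 2 helper T cells and innate lymphoid cells and also of other tissues, had -0.36, -0.09, -0.78 and 0.07 on the control arrays and -0.78, -0.64, -0.82 and -0.97 on the curcumin arrays. Control array 3 lay inside the curcumin range. The difference was -0.51 (SE 0.17, adjusted p = 0.136), and -0.68 (adjusted p = 0.0189) without control array 3. Gata3 passed in only that 1 of the 8 fits that leave out 1 array. Across the 8 the difference ran from -0.68 to -0.39, with adjusted p up to 0.312. Tbx21, the T-bet gene of type 1 helper and NK cells, had -0.27 (SE 0.16, adjusted p = 0.435). Foxp3, the factor that defines regulatory T cells, averaged -0.10 ± 0.14 (SD, n = 4) on the control diet and 0.01 ± 0.11 over 3 curcumin arrays. That difference of 0.11 (SE 0.10, adjusted p = 0.662) did not pass.

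Of the 6 cytotoxic and NK genes tested none passed, and all 6 had lower means with curcumin, as had 56.2% of all measurements. Gzma and Gzmb lay below the reference on every array. Gzmb, the granule protease that triggers apoptosis in target cells, had -0.57, -0.85, -1.53 and -0.33 on the control arrays and -1.93, -1.49, -1.59 and -1.65 on the curcumin arrays. Control array 3 lay within the curcumin range and the other control arrays lay above it. The difference was -0.84 (SE 0.23, adjusted p = 0.0762), and -1.08 (adjusted p = 0.00645) without control array 3. Gzmb passed in only that 1 of the 8 fits that leave out 1 array. Across the 8 the difference ran from -1.08 to -0.68, with adjusted p up to 0.177. Gzma, a tryptase of the same granules, had -1.22, -1.16, -1.98 and -1.42, then -2.26, -1.76, -2.28 and -2.01 with curcumin. Here too control array 3 lay inside the curcumin range (-0.64, SE 0.19, adjusted p = 0.1002).

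Nkg7, a granule membrane protein gene, had the smallest p of the cytotoxic genes. It had 0.32, 0.11, 0.02 and 0.38 on the control arrays and -0.23, -0.17, -0.37 and -0.03 on the curcumin arrays. The groups did not overlap (-0.41, SE 0.11, adjusted p = 0.0654). The perforin gene Prf1 did not overlap between the groups either, with a smaller difference of -0.19 (SE 0.07, adjusted p = 0.181). The NK receptor genes Klrd1 and Klrk1, neighbours on chromosome 6, had differences of -0.27 (SE 0.14, adjusted p = 0.358) for Klrd1 and -0.06 (SE 0.08, adjusted p = 0.793) for Klrk1.

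**Figure D3:**
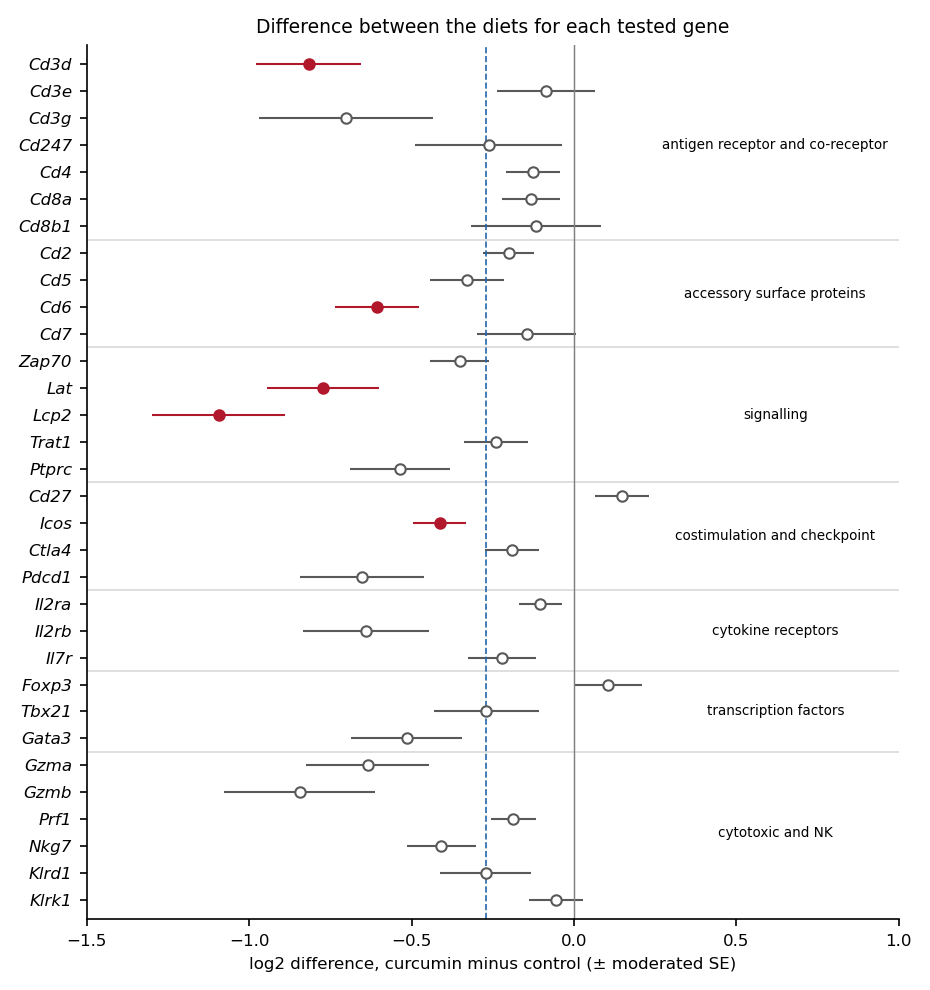
Log2 difference between the diets (curcumin minus control, bars are the moderated SE) for the 32 tested genes, grouped by role. Filled red points are the 5 genes that passed, and the dashed line marks the median of -0.27. Only Cd27 and Foxp3 lie to the right of 0, and neither passed.

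By role, the median difference was -0.54 for the 5 signalling genes, -0.34 for the 6 cytotoxic and NK genes and -0.30 for the 4 costimulatory and checkpoint genes. It was -0.27 for the 4 accessory genes and for the 3 transcription factors, -0.22 for the 3 cytokine receptors and -0.13 for the 7 antigen receptor and co-receptor genes. Whether roles differed was asked with 5 gene pairs, as the log2 ratio of 1 gene minus that of the other on the same array. Gzmb minus Cd3e went from -0.99 ± 0.53 (SD, n = 4) to -1.75 ± 0.19, a change of -0.76. In an exact two-sided permutation test this gave p = 0.0286, the smallest possible, and 0.143 after Benjamini-Hochberg adjustment over the 5 pairs. Ptprc minus Cd3e changed by -0.45 (exact permutation p = 0.0571, adjusted 0.143). Foxp3 minus Cd3e changed by 0.17 (exact permutation p = 0.429 over 4 and 3 arrays, adjusted 0.679), Prf1 minus Cd8a by -0.05 (exact permutation p = 0.543, adjusted 0.679) and Cd8a minus Cd4 by -0.01 (exact permutation p = 0.83, adjusted 0.83). A single pair could not reach an adjusted p below 0.143 in this design, so the failure of Gzmb minus Cd3e to pass says nothing on whether the responses differed, and a pair of Icos with Cd28 could not be tested. The pairs with Cd3e also rest on the CD3 gene that changed least, -0.09 beside -0.82 for Cd3d and -0.70 for Cd3g. Gzmb itself had -0.84 and Ptprc -0.54. Pairs with Cd3d or Cd3g were not tested, so the changes against Cd3e cannot be read as changes against CD3 genes in general.

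Arrays of the same group differed in a shared way across these genes. Among the 4 control arrays, array 3 was lowest for 24 of 31 genes and array 2 highest for 16, where over all probes with 8 values array 3 was lowest for 25.5% and array 2 highest for 31.1%. Among the curcumin arrays, array 1 was lowest for 19 of 30 genes, against 24.1% of all probes. There array 2 was highest for 13 of 30, against 28.3% of all probes. The SD over 4 arrays was larger in the control group for 23 of 29 genes, with medians of 0.25 and 0.14, against 60.8% of 16147 named genes.

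Marker lists of other cells were ordered in part alike and in part differently. Medians of the 32 genes were 0.23, 0.45, 0.12 and 0.38 on control arrays 1 to 4, and -0.10, 0.12, 0.14 and 0.06 on curcumin arrays 1 to 4. Medians of 7 neutrophil markers were 0.84, 0.30, 1.83 and 1.72, and those of 9 macrophage markers 1.20, 0.61, 1.34 and 1.91. Control array 2, highest in the T cell and cytotoxic genes, had the lowest median of both myeloid lists and was the lowest control array for 7 of 9 macrophage and 4 of 7 neutrophil markers. Control array 3 was the highest control array for 3 of the 7 neutrophil markers, and its neutrophil median of 1.83 is the value of the single gene Ngp. Medians of 11 B and plasma cell markers were 0.25, 0.39, 0.17 and 0.64, lowest on control array 3 as in the T cell and cytotoxic genes. Of the 10 B and plasma cell markers measured on all control arrays, array 3 was lowest for 5 and array 2 highest for 8. These are single mice, and the part of the mix of cells in the order of the arrays was not tested.

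**Figure D4:**
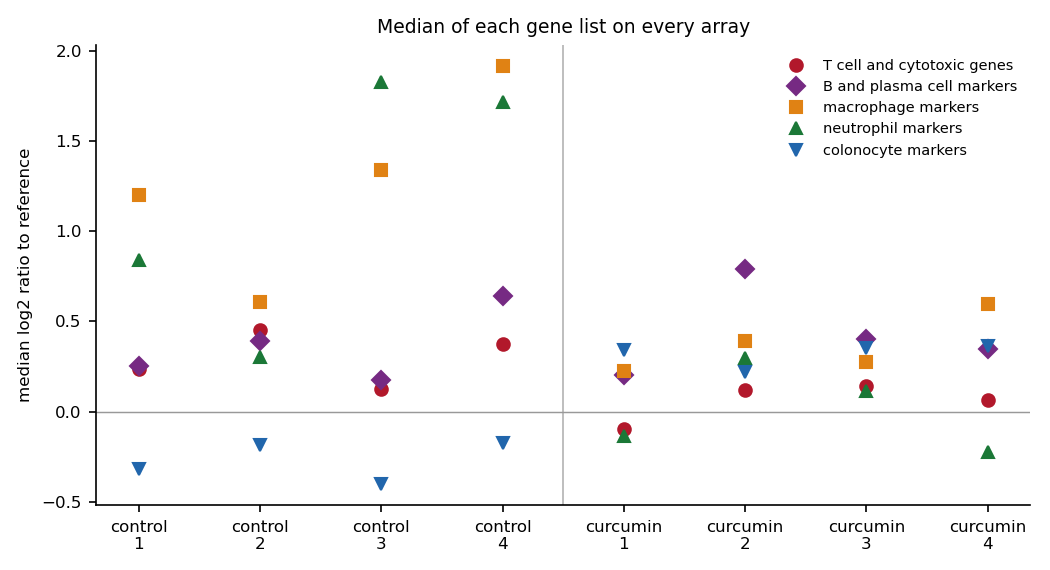
Median log2 ratio to the reference on each array for the 32 T cell and cytotoxic genes and for 4 marker lists. Among the control arrays, array 3 has the lowest T cell median (0.12) and the lowest B and plasma cell median (0.17), and array 2 has the highest T cell median (0.45) with the lowest macrophage median (0.61).

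Between the diets, 4 of 9 macrophage markers and 2 of 7 neutrophil markers fell, with median differences of -0.98 and -1.20, beside -0.27 for the T cell and cytotoxic genes. Of 12 colonocyte markers 2 rose, with a median difference of 0.44, though the colonocyte median equals a log ratio shared by many features on 2 curcumin arrays. Over all measurements the shares were 2.63% downward and 2.1% upward. None of 11 B and plasma cell markers passed in limma (1 at an unadjusted p under 0.05), and their median difference was -0.07. As array medians, macrophage markers ran from 0.61 to 1.91 in control and from 0.23 to 0.59 with curcumin, and B cell markers from 0.17 to 0.64 and from 0.20 to 0.79. Lcp2, Lat and Ptprc are also expressed by myeloid or mast cells, and the part of those cells in their values was not tested.

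Of 64 further genes of T cell signalling, regulation and cytotoxicity that are not among the 37, 56 were tested, 7 fell and none rose. Of all measurements 2.63% fell and 2.1% rose. In signalling 4 of 29 fell: the transcription factor genes Ikzf1 (-0.87, SE 0.16, adjusted p = 0.0183) and Satb1 (-0.43, SE 0.09, adjusted p = 0.0355), the surface glycoprotein gene Thy1 (-0.92, SE 0.19, adjusted p = 0.0286), and Vav1 (-0.51, SE 0.11, adjusted p = 0.0319), an exchange factor that acts below LAT and SLP-76. In checkpoint and regulatory genes 2 of 11 fell. Havcr2, which encodes TIM-3 and is also made by macrophages and dendritic cells, went from 1.01 ± 0.23 (SD, n = 4) to -0.03 ± 0.21 (-1.04, SE 0.14, adjusted p = 0.00565). Entpd1, the CD39 ectonucleotidase gene shared by regulatory T cells, endothelium and macrophages, had -0.63 (SE 0.13, adjusted p = 0.0268). In cytotoxic and NK genes 1 of 16 fell, the chemokine gene Ccl5, from 0.98 ± 0.48 to -0.63 ± 0.33 (-1.61, SE 0.24, adjusted p = 0.00847). Its control values were 1.06, 0.60, 0.63 and 1.63 and its curcumin values -1.10, -0.33, -0.55 and -0.54, without overlap. For none of these 7 genes was the part of cells other than T and cytotoxic cells tested.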

How the data were processed

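Colon RNA of 8 mice was measured on 8 Agilent arrays. Per the labels' protocols, 500 ng of RNA, purified with Trizol and then on RNeasy columns, was amplified from an oligo-dT primer and labelled. The authors deposited normalized log2 ratios, for which the submitters' processing notes name limma without a version or settings. The table holds 44290 features, with 5033 to 10529 missing values per array.

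Probes were named from the platform annotation (32042 with 1 symbol, 47 with several). A probe needed values on 3 or more arrays of both diets. Those left were averaged per gene and array, which gave 24030 measurements, of which 17220 carry a symbol. The test was limma's (version 3.58.1, R 4.3.3; lmFit, eBayes, no covariate), curcumin minus control, two-sided, Benjamini-Hochberg over all measurements, threshold 0.05. The code was tested on simulated data. Figures used Python 3.11.15 and matplotlib 3.10.9. The 37 genes, the other lists and the tests were chosen with earlier results of these data known, and the motifs too. Every gene of the list is accounted for, and full statistics go to those that passed and, in roles with none, to the gene with the smallest p. Outside that rule, array values are also given for Cd3g, Zap70, Pdcd1, Gzma, Gzmb and a probe of Ptprc. Of further genes, up to 4 that passed are named per list. Alternatives covered scaling, filters, probe averaging, slide range, array weights, replicate number and each array left out. Errors after ± are SD, and SE is the moderated standard error.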

Additional observations from a re-analysis of the deposited data

Results flagged for a closer look

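Groups of 4 values were checked for a value apart from the other 3, with 61 groups of the 32 genes, and 2 were found. Chance gives about 1 in 20 groups, so 2 of 61 is no more than chance alone would give. Both lay on curcumin array 1 and were the lowest of their group. Cd6 was -0.16 there, with the nearest other curcumin array at 0.16, a gap of 0.862 of the group's range. Lcp2 was -0.15 there, with the nearest at 0.22, a gap of 0.879 of the range. Both genes passed between the diets. Without curcumin array 1 none of the 5 genes passed, and calls over all measurements went from 1137 to 526. The log2 differences there were -0.52 for Cd6 (-0.61 with all arrays, adjusted p = 0.0831 without it) and -0.99 for Lcp2 (-1.09 with all arrays, adjusted p = 0.0606 without it), both from limma.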

How the results depend on the processing

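Over 19 alternative fits, 603 differences of the 32 genes were compared with the values given above: 548 kept their direction and their side of the threshold, 34 lost the call, 18 gained one and 3 turned sign. The 3 were Cd3e and Cd8b1 without control array 2, and Il7r (0.0483) with the median of probes. Only a gene that had passed could lose its call, and the 548 include genes that stayed without one. All 34 losses fell on Cd3d, Cd6, Icos, Lat and Lcp2. Of the 8 fits that leave out 1 array, Cd3d passed in 3, Cd6 in 2, Icos in 4, Lat in 3 and Lcp2 in 6. With 1 array left out Cd3e ran from -0.1866 to 0.0749 and Cd8b1 from -0.2863 to 0.0756. On their own, single probes of Cd3e (0.009), Ptprc (0.10) and Il7r (0.11) also had the opposite sign. The number of T cell and cytotoxic genes that fell was 0 with slide range as a term, 0 within the shared range, 3 with the replicate block, 12 with array weights, and 0 to 13 with 1 array left out. The further T cell genes that fell numbered 2 with slide range as a term, 0 within the shared range, 11 with array weights, and 2 to 12 with 1 array left out. Over all measurements 1137 changed, against 330 with slide range as a term, 168 within the shared range, 743 with the replicate block, 1800 with array weights, and 487 to 1364 with 1 array left out. The cause of these shifts was not tested. Fits that leave some arrays out also hold fewer arrays, and the part of that was not tested either. Quantile normalization, other filters, the median of probes, a robust variance prior, and 2 alternatives chosen after seeing the data (the shared log ratio set to missing, and averaging before the filter) kept all these counts within 1.5 times. Arrays of the same replicate number were not taken as pairs. Same-numbered arrays had correlations of their deviations from -0.02 to 0.20, and not every array correlated best with its own number. Numbers 1 and 2 gave 0.16 and 0.20, where all combinations ran from -0.28 to 0.21, so these values do not settle whether arrays were paired. Cd8a minus Cd4 turned to 0.0146 with quantile normalization and 0.0187 with slide range as a term or within the shared range, and ran from -0.0985 to 0.0669 with 1 array left out. Prf1 minus Cd8a ran from -0.0855 to 0.0014 there, Ptprc minus Cd3e from -0.5872 to -0.3442 and Gzmb minus Cd3e from -0.9282 to -0.5806. With the median of probes Ptprc minus Cd3e was -0.22 (exact permutation p = 0.371). With quantile normalization Gzmb minus Cd3e was -0.69 (exact permutation p = 0.0571). If the ratio ran the other way, the Xist median would be 1.39 in place of -1.39.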
